A study of Mus musculus with 4 samples.

Results

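A set of interferon response genes, namely Ifit1, Ifit2, Ifit3, Ifit3b, Isg15, Usp18, Rsad2, Bst2, Ifi44 and Ifi27, was followed in RNA-seq of mouse pancreatic islets, the hormone-secreting cell clusters of the pancreas. They were taken by symbol from a table of 52636 genes, and all 10 were found. The choice was made with earlier results of the same comparison in view, so the differences between groups are given as descriptions, and no test of them is offered as evidence. The knockout group held 2 libraries from Tspan7 knockout mice (genotype Tspan7 y/-, males that lack the X-linked tetraspanin gene), and the controls were 2 libraries from wild-type mice. The labels give no age, no strain and no count of animals or islets behind a library, so the spread between libraries may be technical. Sample titles and genotypes call the mice knockout, whereas the submitters' design line for the series abbreviates them as KD, a usual short form of knockdown; the sample labels were followed here. They name no cell type for the deletion.

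Interferons are secreted proteins that bind surface receptors and, through JAK kinases, activate a complex of transcription factors. This complex binds a DNA sequence called the interferon-stimulated response element in front of many genes and switches them on. The genes described here are classic members of that set, and their products act on viral RNA, on protein modification, on lipid and nucleotide chemistry or on virus release. In islets such genes are known above all from infection and from type 1 diabetes, where beta cells and immune cells express them.

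The response element was visible in the promoters of most of these genes. RefSeq promoter sequences on GRCm38.p6, from 250 bases before to 50 bases after the start of transcription, were at hand for 8 of the 10 genes. Its core, GAAA followed by any 2 bases and then GAAA again, was searched on both strands, so that TTTC, any 2 bases and TTTC counted as a match. It was present for 6 of the 8, Ifit1, Ifit3, Ifit3b, Isg15, Rsad2 and Bst2, while 3.99% of the 27025 genes with a promoter in the table held it. The stretches that hold the matches are shown because they carry the feature these 6 genes have in common, with the matched letters in capitals.
Ifit1, chr19:34640749-34640848, plus strand: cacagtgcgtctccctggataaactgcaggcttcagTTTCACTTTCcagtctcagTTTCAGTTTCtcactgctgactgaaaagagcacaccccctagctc
Ifit3, chr19:34583345-34583444, plus strand: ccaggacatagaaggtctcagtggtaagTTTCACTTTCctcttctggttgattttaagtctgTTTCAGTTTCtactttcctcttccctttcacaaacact
Ifit3b, chr19:34607741-34607840, plus strand: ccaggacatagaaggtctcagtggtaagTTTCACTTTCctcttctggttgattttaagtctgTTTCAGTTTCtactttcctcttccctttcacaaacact
Isg15, chr4:156200836-156200935, minus strand: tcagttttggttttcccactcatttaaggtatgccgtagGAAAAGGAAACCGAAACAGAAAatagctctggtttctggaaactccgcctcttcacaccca
Rsad2, chr12:26456518-26456617, minus strand: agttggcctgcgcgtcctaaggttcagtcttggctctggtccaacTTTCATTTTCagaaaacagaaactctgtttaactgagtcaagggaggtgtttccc
Bst2, chr8:71537545-71537644, minus strand: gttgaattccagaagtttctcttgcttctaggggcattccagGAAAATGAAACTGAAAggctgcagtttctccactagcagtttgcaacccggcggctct

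Isg15 carried 3 overlapping matches, between 78 and 57 bases before its start, and Bst2 carried 2 overlapping matches between 130 and 115 bases before its start. Ifit1 carried 2 matches that began 104 and 85 bases before the start. Ifit3 and Ifit3b also carried 2 each, and their printed stretches were identical at 100 of 100 positions. The match of Rsad2 began 120 bases before its start. No match to these letters was found in the windows of Ifit2 and Ifi44. The core of the gamma-activated site, TTCNNNGAA, which reads the same on both strands, was present for 2 of the 8 genes, against 9.55% of all genes with a promoter. In Bst2 it overlapped the response element core, and in Ifit2 it lay in 1 of 2 annotated promoters.

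Library totals ran from 7855665 to 9377220 counts, so that 3 counts, taken as the detection floor, equal 0.320 to 0.382 counts per 1000000 library counts (CPM). Tspan7 itself had 3 and 2 counts in knockout replicates 1 and 2, against 1924 and 1795 counts in control replicates 1 and 2, as the labels say. The deposited counts are raw reads per gene. CPM values below are scaled for library composition by the trimmed mean of M-values, and in each list of values replicate 1 comes before replicate 2. The islet hormone genes and their companions, used as defining markers of the tissue, summed to 25701 and 30509 CPM in knockout and 29748 and 25252 CPM in control libraries. Digestive enzyme markers of acinar cells, the exocrine tissue around islets, summed to 961 and 4373 CPM in knockout and 2126 and 49.96 CPM in control libraries, so libraries of 1 group differed more than the group means.

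The Ifit genes encode proteins with tetratricopeptide repeats that bind foreign RNA or its partners in translation, and they lie together on chromosome 19 in the order Ifit2, Ifit3, Ifit1bl1, Ifit3b, Ifit1bl2 and Ifit1. Ifit1, which recognises RNA caps that lack a methyl mark, measured 34.1 and 25.8 CPM in knockout islets, against 62.7 and 39.1 CPM in control islets. Both knockout libraries were below both controls, although the gap between knockout replicate 1 and control replicate 2 was small. The group means were 29.95 ± 5.93 CPM and 50.9 ± 16.8 CPM (SD, n = 2 each), with a log2 fold change of -0.76 ± 0.25 (SE), the knockout over the control.

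Ifit2, a partner of the other family members that is also linked to apoptosis, measured 1.76 and 1.59 CPM in knockout islets, against 5.31 and 3.18 CPM in control islets. The groups were clearly apart, at low counts of 17 and 12 in knockout and 45 and 30 in control libraries. Its log2 fold change was -1.32 ± 0.39 (SE). Ifit3, which stabilises Ifit1 in the human complex, measured 3.52 and 3.30 CPM in knockout islets, against 12.9 and 6.77 CPM in control islets. The knockout libraries were close to each other, while the control libraries differed 1.90-fold. Its log2 fold change of -1.51 ± 0.36 (SE) was the lowest among the 9 genes fitted.

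Ifit3b, a duplicate of Ifit3, measured 3.10 and 1.45 CPM in knockout islets, against 7.08 and 2.54 CPM in control islets. Here the groups overlapped, with knockout replicate 1 above control replicate 2, and the 95% confidence interval (CI) of the log2 fold change of -1.03 ran from -2.36 to 0.31. The counts of the 2 copies are uncertain taken singly. Of all 50-base stretches in the GENCODE M21 transcript of Ifit3, 51.2% also occur in Ifit3b, and 44.5% of those of Ifit3b occur in Ifit3. At 100 bases the shares were 31.7% and 27.4%. The number of Ifit3 counts per Ifit3b count was 1.13 and 2.27 in knockout and 1.82 and 2.67 in control libraries. Counted together, the copies gave 64 and 36 counts in knockout libraries, against 169 and 88 in control libraries. The groups did not overlap for this sum, and its log2 fold change was -1.34 ± 0.39 (SE). Ifit1 shared 7.13% of its 50-base stretches with other genes, and Ifit2 shared none.

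**Figure D1:**
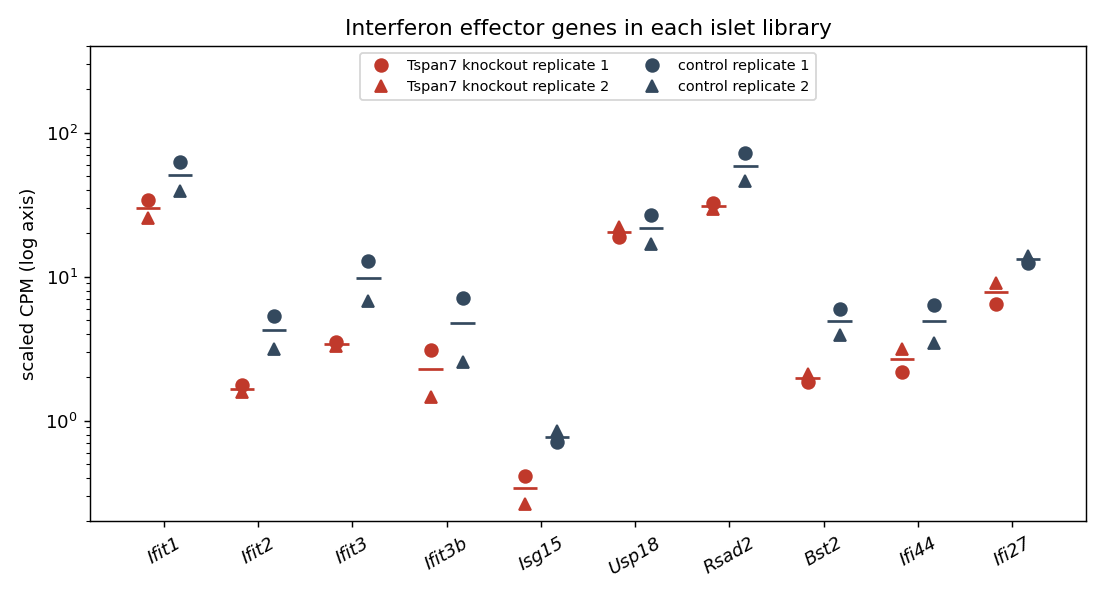
Scaled CPM on a log axis for each of the 10 genes, with knockout libraries in red on the left of each pair and control libraries in dark blue on the right. Circles are replicate 1, triangles are replicate 2 and short lines are group means over 2 libraries; Ifit3b and Usp18 are the genes whose groups overlap.

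Isg15 encodes a ubiquitin-like protein that is attached to other proteins, and Usp18 encodes the protease that removes it and that also damps signalling at the interferon receptor. Isg15 had 4 and 2 counts in knockout libraries, against 6 and 8 counts in control libraries, or 0.414 and 0.264 CPM against 0.708 and 0.847 CPM. It lay so close to the floor that it did not pass the count filter and was not fitted. Per library count, knockout islets held 44.4% of the Isg15 of control islets, and the exact binomial 95% interval, which covers counting error only, ran from 14.0% to 123%, so a difference was not detectable at this depth. Of its 50-base stretches, 3.96% also occur in another annotated transcript, and 0% do so at 100 bases.

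Usp18 measured 18.7 and 22.1 CPM in knockout islets, against 26.7 and 16.8 CPM in control islets. Both knockout libraries lay between the controls. Its log2 fold change was -0.09 with a 95% CI of -0.64 to 0.45, the value nearest 0 among the 9 genes fitted, and its sign was positive without control replicate 1 (0.27) and without knockout replicate 1 (0.027). An annotated gene on the opposite strand, Gm44148, overlaps 124 bases of the exons of Usp18, and whether the counting used strand is not given in the sources used here.

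Rsad2 encodes viperin, a radical SAM enzyme of the endoplasmic reticulum that makes a chain-terminating nucleotide, and Bst2 encodes tetherin, a membrane protein that holds budding virions at the cell surface. Rsad2 measured 32.4 and 29.7 CPM in knockout islets, against 71.7 and 46.4 CPM in control islets. The knockout libraries were close together and both below the controls. Its log2 fold change was -0.92 ± 0.21 (SE), the smallest SE among the genes fitted, from 313 and 225 counts in knockout and 608 and 438 in control libraries. Cmpk2, the mitochondrial nucleotide kinase gene that neighbours Rsad2 and supplies the substrate of viperin, measured 44.7 and 53.4 CPM in knockout islets, against 54.1 and 44.0 CPM in control islets. Its groups overlapped, and its log2 fold change was -0.0022 with a 95% CI of -0.38 to 0.38 (edgeR adjusted p = 0.9998). The difference between these neighbours was not tested.

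Bst2 measured 1.86 and 2.11 CPM in knockout islets, against 6.02 and 3.92 CPM in control islets. The groups were clearly apart, and the log2 fold change was -1.32 ± 0.36 (SE) from 18 and 16 counts in knockout and 51 and 37 in control libraries. Bst2 is also a surface marker of plasmacytoid dendritic cells in mice. Of 5 other listed markers of those cells, 4 were fitted, 2 with negative and 2 with positive log2 fold changes (median -0.05), and the 5 summed to 105 and 114 CPM in knockout islets, against 104 and 101 CPM in control islets, most of it from Tcf4. Siglech, a defining marker, had 8 and 7 counts in knockout and 12 and 12 in control libraries (log2 fold change -0.61 ± 0.48, SE). Its knockout libraries were both below both controls, as in 15.0% of all tested genes, but Siglech passed the filter through the controls. Ccr9 had 30 and 10 counts in knockout and 15 and 19 in control libraries, and its groups overlapped. For Tcf4, at 0.12 on the log2 scale, both knockout libraries were above both controls, as in 15.3% of all tested genes. Tcf4 had 825 to 953 counts in a library, far more than the other markers listed, so the sum mostly follows Tcf4. Irf8 stood at -0.21 with overlapping groups. Runx2 had 7 and 4 counts in knockout and 7 and 11 in control libraries and was not fitted. The part of such cells in the Bst2 values was not tested.

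Ifi44 encodes a cytoplasmic interferon-induced protein, and Ifi27 a small membrane protein of mitochondria and the nuclear envelope. Ifi44 measured 2.17 and 3.17 CPM in knockout islets, against 6.37 and 3.49 CPM in control islets. The groups did not overlap, but knockout replicate 2 nearly reached control replicate 2, and the 95% CI of the log2 fold change of -0.89 ran from -1.80 to 0.017. Ifi27 measured 6.52 and 9.12 CPM in knockout islets, against 12.5 and 13.9 CPM in control islets. The groups were apart, and here the control libraries were close to each other, unlike in the other 8 fitted genes. Its log2 fold change was -0.76 ± 0.24 (SE).

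**Figure D2:**
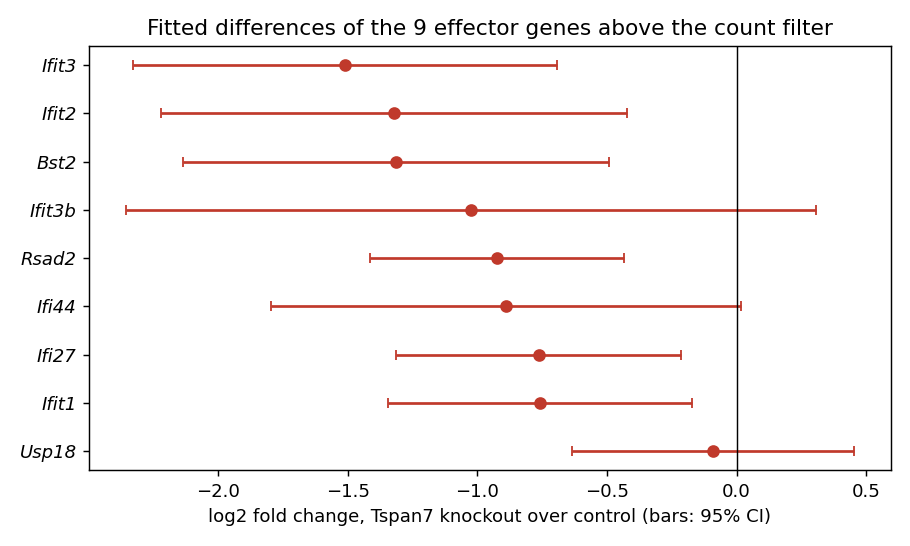
Log2 fold change of the knockout over the control for the 9 fitted genes, with points for the estimate and bars for the 95% CI of the quasi-likelihood fit. Values run from -1.51 for Ifit3 to -0.09 for Usp18, and the bars of Usp18, Ifi44 and Ifit3b cross 0; Isg15 was not fitted.

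Across the group, 9 of the 10 genes passed the low-count filter, each with at least 11 counts in every library. All 9 had negative log2 fold changes, against 49.4% of the 16924 genes tested, and their median was -0.92, against 0.0034 over all tested genes. In 7 of the 9 both knockout libraries were below both controls, an arrangement found in 15.0% of all tested genes. None of the 9 passed an adjusted p of 0.05 in edgeR (0 genes, where 0.00591% of all genes were called lower), nor in DESeq2 (0 genes, against 0.0355%) or limma-voom (0 genes, against 0.00591%). At an unadjusted p of 0.05 edgeR listed 6 of the 9 as lower, against 1.96% of all genes. Because the genes were picked from this same contrast, nothing is read from these counts.

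A second feature set the libraries apart, the difference between the controls. Control replicate 1 was above control replicate 2 in 8 of the 9 fitted genes, against 50.4% of all tested genes, with Ifi27 as the exception. The median log2 difference between the controls was 0.68 over the 9 genes, against 0.0029 over all tested genes, and may be read beside the median of -0.92 between knockout and control. The control ratio was 1.61 for Ifit1, 1.55 for Rsad2, 1.58 for Usp18, 1.54 for Bst2, 1.82 for Ifi44 and 2.79 for Ifit3b. Between the knockout libraries the median log2 difference was 0.086, and replicate 1 was the higher in 5 of the 9, against 50.3% of all tested genes. Summed over all 10 genes, the level was 105 and 98.6 CPM in knockout islets, against 212 and 137 CPM in control islets.

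Without control replicate 1, the median of the 9 genes was -0.58, with Ifit1 at -0.38, Rsad2 at -0.58, Ifi44 at -0.40, Ifit3 at -0.99 and Ifit3b at -0.12. Without control replicate 2, it was -1.27. Ifi27, the gene with the steadiest controls, had log2 fold changes of -0.84 and -0.69 when control replicate 1 and control replicate 2 were left out in turn. Whether a property of control replicate 1 takes part in the values was not tested.

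**Figure D3:**
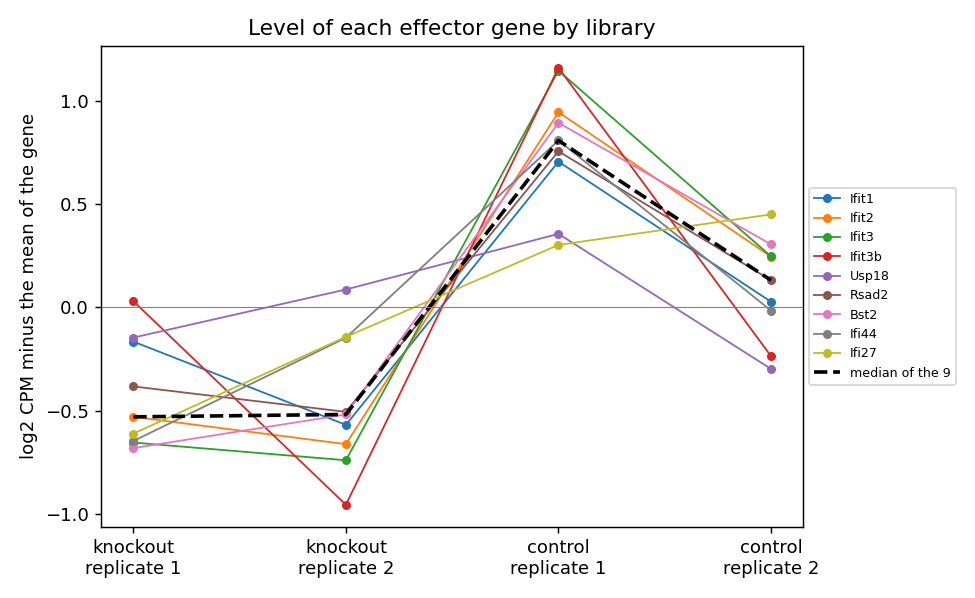
Log2 CPM of each of the 9 fitted genes minus its own mean over the 4 libraries, with knockout libraries on the left and control libraries on the right; lines join the values of a gene and the dashed line is the median over the 9. Control replicate 1 is the highest library for every gene but Ifi27, and the median profile is -0.53 and -0.52 in the knockout libraries against 0.81 and 0.13 in the control libraries.

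Levels can be compared between genes only per length, and CPM per kilobase of annotated exon was used for that. In knockout islets Ifit1 had a mean of 11.3 CPM per kilobase, followed by Usp18 at 7.31, Rsad2 at 7.16, Ifi27 at 5.33, Bst2 at 2.20, Ifit3 at 1.95, Ifit3b at 1.14, Isg15 at 0.448, Ifi44 at 0.436 and Ifit2 at 0.426. In control islets the order began with Ifit1 at 19.2, Rsad2 at 13.6 and Ifi27 at 8.99 CPM per kilobase. There Usp18 followed at 7.79, Ifit3 at 5.62, Bst2 at 5.50, Ifit3b at 2.40, Ifit2 at 1.08, Isg15 at 1.03 and Ifi44 at 0.805. In knockout islets the neighbours in this order that did not differ beyond the spread of the libraries were Usp18 and Rsad2, and Isg15, Ifi44 and Ifit2 at the low end. In control islets the wider spread left only the steps from Rsad2 to Ifi27 and from Bst2 to Ifit3b clear of it. Spread between 2 libraries does not measure counting error, and the step from Bst2 to Ifit3 in knockout islets rests on few counts. Bst2 had 18 and 16 counts there, and Ifit3 had 34 and 25. How reads shared by Ifit3 and Ifit3b were counted is not known, so the places of these 2 copies are uncertain. Isg15, a small gene of 756 exon bases, was thus among the lowest per length as well.

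The genes nearest to the median profile of the 9 were sought over the 4 libraries by Euclidean distance between centred log2 CPM values. The 5 nearest were Spi1 (distance 0.146), Gm23639 (0.153), Bcl2a1b (0.220), Oas2 (0.240) and Gm11549 (0.264). Of these, 4 had at most 22 counts in any library. Spi1, Gm23639 and Bcl2a1b passed the filter through their counts in the controls, so a difference was built into passing. Spi1 had 7 and 5 counts in knockout libraries, against 16 and 11 in control libraries. Oas2, an oligoadenylate synthetase that senses double-stranded RNA, had 21 and 16 counts in knockout libraries, against 59 and 33 in control libraries. With only 4 libraries many genes can share a profile, so the distances are a description.

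Genes elsewhere in the interferon pathway were listed by role, 83 in all, of which 64 passed the filter. None was called lower or higher by edgeR (0 in each direction), and 59 had negative values, against 49.4% of all tested genes. At an unadjusted p of 0.05, 23 were lower and 0 higher, against 1.96% lower and 1.55% higher over all tested genes. Their median log2 fold change was -0.48, and in 40 of the 64 the knockout libraries were both below the controls, against 15.0% of all tested genes. DESeq2 called 1 of them, Oasl2, and limma-voom 0. Between the controls the 64 genes showed less of a common order than the 9 effector genes. Control replicate 1 was higher in 38 of 64 (50.4% of all tested genes), with a median log2 difference of 0.12. This contrast of the groups of genes was not tested. The pathway list was drawn up with earlier results of this comparison known. Some of its genes, such as Oas1a, Mx1, Ifit1bl2 and Epsti1, passed the filter through their counts in the controls. Nothing is therefore read from the counts of genes in this list.

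The ligands were at or near 0 throughout. Of 12 interferon genes, 9 had no count in any library, and the other 3, Ifnb1, Ifna2 and Ifnk, had at most 2 counts in a library, below the floor. No ligand was fitted, and the counts limit only their RNA in these islets.

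The 6 receptor genes had a median of -0.16, with 0 called. Their values were negative in 5 and positive in 1, against 49.4% negative over all tested genes. Ifnar2, a chain of the type I interferon receptor, stood at -0.35 ± 0.18 (SE), Il10rb at -0.25 ± 0.22, Ifngr1 at -0.09 ± 0.17 and the lambda receptor chain Ifnlr1 at -0.23 ± 0.33. The intervals of these 4 receptors all held 0. Ifnar1, another chain of the type I interferon receptor, stood at -7.2e-05 ± 0.14 (SE) and Ifngr2 at 0.12 ± 0.23.

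Among 11 signalling genes the median was -0.27, with 0 called. Their values were negative in 9, against 49.4% of all tested genes. The 2 positive values were those of Irf1, at 0.31 ± 0.33 (SE), and Socs1, at 0.34 ± 0.58. Irf7, the transcription factor that amplifies the response, had 60 and 38 counts in knockout libraries, against 136 and 125 in control libraries, and the groups were well apart (log2 fold change -1.37 ± 0.24, edgeR adjusted p = 0.684). Stat2 and Irf9, which encode transcription factors of the response, stood at -0.48 ± 0.16 and -0.31 ± 0.16, each with an edgeR adjusted p of 0.9997. For both genes the knockout libraries were both below the controls.

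The enzymes that attach ISG15 to proteins stood at -0.47 ± 0.32 (SE) for Uba7, the activating enzyme, -0.69 ± 0.26 for Ube2l6, the conjugating enzyme, -0.22 ± 0.17 for Herc6, the main ligase in mice, and -0.06 ± 0.15 for Trim25, another ligase. None of the 4 was called. In the Ifit neighbourhood, Ifit1bl2 had 6 and 7 counts in knockout libraries, against 10 and 16 in control libraries, at a log2 fold change of -0.92 ± 0.52 (SE). It passed the filter through its control counts, so a difference was built into passing. Ifit1bl1 had 8 and 0 counts in knockout libraries, against 7 and 10 in control libraries, and was not fitted.

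The 41 other effectors fitted had a median of -0.57, with 0 called and 19 lower at an unadjusted p of 0.05, against 1.96% of all tested genes. Positive values were found for 2 of them, Mx2 at 0.56 ± 0.38 (SE) and Ifitm2 at 0.11 ± 0.28. Oas1a, an oligoadenylate synthetase, had 3 and 4 counts in knockout libraries, against 21 and 17 in control libraries (log2 fold change -2.34 ± 0.55, SE). Mx1, a GTPase against influenza viruses, had 7 and 11 counts in knockout libraries, against 32 and 53 in control libraries (-2.14 ± 0.44). Both genes passed the filter through their counts in the controls, so a difference was built into passing. Oasl2 had 111 and 66 counts in knockout libraries, against 247 and 227 in control libraries (-1.39 ± 0.21), and Ddx60, a helicase that aids RNA sensing, stood at -0.93 ± 0.16. In these genes control replicate 1 was not uniformly the higher library, since Mx1 and Ddx60 were higher in control replicate 2.

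**Figure D4:**
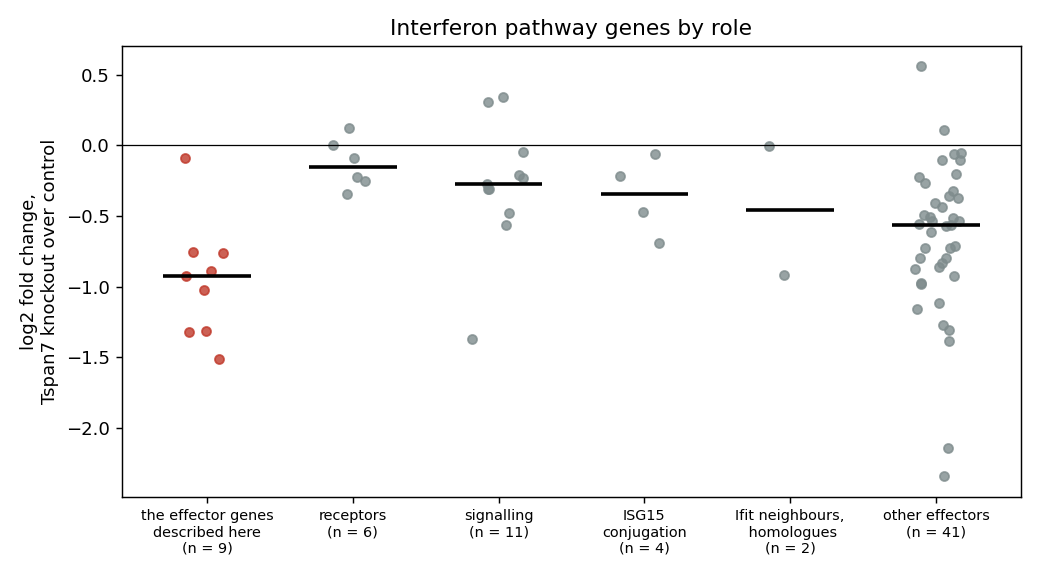
Log2 fold change of the knockout over the control for the 9 effector genes (red) and for 64 other interferon pathway genes by role (grey), 1 point a gene, with black lines at medians. The medians are -0.92 for the effector genes, -0.16 for receptors, -0.27 for signalling genes, -0.35 for ISG15 conjugation, -0.46 for the 2 fitted Ifit neighbours and homologues and -0.57 for other effectors. No gene in the plot passed the adjusted threshold in the edgeR fit shown, while DESeq2 called Oasl2.

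Markers of immune cells, which also express interferon genes, are given beside these values. All 13 fitted macrophage markers of 15 listed had negative log2 fold changes, with a median of -0.48 and 0 called, and in 8 both knockout libraries were below both controls. Over all tested genes, 49.4% had negative values and 15.0% had both knockout libraries below both controls. At an unadjusted p of 0.05, edgeR listed 5 of the 13 as lower, against 1.96% of all tested genes. These 5 were the leukocyte gene Ptprc at -0.94, Lyz2 at -0.93, Cd14 at -0.78, Adgre1 at -0.70 and Ctss at -0.64. The complement genes C1qa and C1qb, at -0.14 and -0.06, and the receptor gene Csf1r, at -0.10, were near 0. Another complement gene, C1qc, stood at -0.37, with both knockout libraries below both controls. The summed level of the 15 macrophage markers was 84.8 and 74.2 CPM in knockout islets, against 120 and 101 CPM in control islets. The 10 lymphocyte markers summed to 21 and 15 counts in knockout and 25 and 28 in control libraries, with Ms4a1 at 0 in all, and the 5 neutrophil markers to 2 and 4 in knockout and 6 and 2 in control libraries, with S100a8, S100a9 and Retnlg at 0. Of 8 endothelial markers, 6 had negative values (median -0.21) and 5 had both knockout libraries below both controls, with sums of 431 and 497 CPM in knockout and 497 and 510 CPM in control islets. Of 5 stellate cell and pericyte markers, 4 had negative values (median -0.54) and 3 had both knockout libraries below both controls, with sums of 149 and 193 CPM in knockout and 197 and 228 CPM in control islets. Among them, Col3a1 stood at -0.68, Pdgfrb at -0.60 and Rgs5, the most abundant of the 5, at -0.29. Col1a1 stood at -0.54 and Col1a2 at 0.014, and the groups overlapped for both. Of 4 fitted ductal markers, 1 had a negative value (median 0.14). edgeR called 0 markers of these 3 lists, and 1, Col3a1, was lower at an unadjusted p of 0.05. In whole islets, fewer cells of a type and less RNA per cell cannot be told apart, and the part of any of these cells in the effector gene values was not tested.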

How the data were processed

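RNA-seq of whole islets was compared between 2 Tspan7 knockout and 2 control libraries, grouped by their titles. The authors deposited raw counts per Ensembl gene. Per the submitters' processing notes, HISAT2, featureCounts and the build GRCm39 were used; the annotation release, strand setting and handling of multi-mapping reads are not given in these sources. GENCODE M21 (GRCm38) named 52403 of 52636 identifiers and gave exon lengths, transcript stretches and gene order, with no gene coordinates taken from it.

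The whole table was analysed in edgeR 4.0.16 (R 4.3.3): filterByExpr with a minimum count of 10, trimmed mean of M-values scaling, and a two-sided quasi-likelihood F test (robust fit, no covariate), Benjamini-Hochberg adjustment over all 16924 genes, threshold 0.05. SE and 95% CI come from that fit. Profiles used log2 CPM with a prior count of 2. The fit was tested on simulated counts. DESeq2 1.42.0, limma 3.58.1 (voom), other scalings, no filter, a replicate block, each library left out and summed Ifit3 copies were the alternatives. Summed over genes, libraries of a group differed beyond sampling noise (chi-square divided by its degrees of freedom was 13.3 in knockout and 12.9 in control). Genes with many counts weigh heavily in this sum, such as the acinar gene Pnlip, with 4327 and 100 counts in the controls. Each library counted as 1 sample, although the labels do not say how many animals lie behind it. Counting intervals and floors cover counting error only.

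The 10 genes, the pathway and marker lists and the naming rule were chosen with earlier results of these data known. By that rule all 10 genes are named, Tspan7, up to 4 pathway genes per role with the smallest unadjusted p, and the 5 nearest profiles; other genes named were chosen after their values were seen. An entry listed as Ifi27l1, an older symbol of Ifi27, was dropped from the pathway list. The 2 members without a promoter in the table are Usp18 and Ifi27, and protein sequences were not used here. A result for a gene of the pathway list is not reported here.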

Additional observations from a re-analysis of the deposited data

How the results depend on the processing

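Among the 9 fitted effector genes, 99 of 101 log2 fold changes under 12 alternatives kept their negative sign. The value of the summed Ifit3 copies, -1.34, was entered for both Ifit3 and Ifit3b among these. The exceptions were those of Usp18, at 0.27 with control replicate 1 left out and 0.027 with knockout replicate 1 left out. The values of Usp18 with 1 library left out ran from -0.39 to 0.27. The median of the 9 ran from -1.27 to -0.58 with 1 library left out and from -0.93 to -0.89 under the other alternatives. With no low-count filter 3 of the 10 genes were called lower, against 0 with the filter. They were Rsad2, Ifit3 and Ifit1 (edgeR adjusted p = 0.000244, 0.00144 and 0.0108). In that fit 7 genes of the pathway list were also called. Over all 32032 genes tested without the filter, 47 were called lower (0.147%) and 15 higher. The cause of this change with the filter was not tested. DESeq2 called 6 genes lower in all and 1 of the pathway list, Oasl2. Counts with 1 library left out ran from 1 to 15 genes lower and from 0 to 33 higher over the whole table, and were 0 to 0 for the effector genes and for the pathway list.

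The labels number the replicates, but nothing says that a number marks a shared litter or day. Deviations of same-numbered libraries from their group means correlated at -0.30 over 16924 genes. With the replicate block, 5 genes were called lower and 1 higher, with 1 of the pathway list and 0 of the effector genes. The crossed replicate block, chosen after seeing the data, called 1 lower and 1 higher, and 0 of the pathway list and of the effector genes. Depth limits Isg15, at 2 to 8 counts, most.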
